A study of Nicotiana benthamiana with 12 samples.

Results

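The response of wild-type (WT) Nicotiana benthamiana seedlings to abscisic acid (ABA) was described across all genes with enough counts for a test. N. benthamiana is a relative of tobacco and a common laboratory plant. Of 45796 gene IDs in the deposited count table, 33170 passed a filter on low counts in the 6 WT libraries, and these genes make up the set described here. The filter kept genes that reached about 10 counts in at least 3 of the 6 libraries. In CPM, the count of a gene relative to the size of its library in the usual unit, the weakest gene kept had 3 libraries at or above 0.548, and the strongest gene left out had 3 at or above 0.538. Of the 12626 genes left out, 4859 had no count in any WT library. The genes left out held 0.105% to 0.113% of the counts of a WT library in all.

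By the labels, whole seedlings of the LAB strain were at 10 days after germination and at day 10 of culture in liquid medium. They were then kept for 3 h in fresh medium with 10 μM ABA (3 libraries) or with 0.1% DMSO, the solvent, as mock (3 libraries). The design text calls the 3 libraries of a group independent biological replicates. The line labelled pent1 received both treatments as well, with 3 libraries each, and is used below only as a separate set of libraries; the sources used here do not say which gene it alters. Since RNA came from whole seedlings, fewer cells of a type and less RNA per cell cannot be told apart.

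ABA is the hormone that plants build up under drought and in maturing seeds. It binds soluble receptors, which then block a class of protein phosphatases. The kinases that these phosphatases hold back become active and phosphorylate transcription factors that bind ABA-responsive promoter elements. Genes known from other plants to rise with ABA include those for late embryogenesis abundant proteins, for enzymes of ABA breakdown and for the phosphatases themselves, whereas genes of growth and photosynthesis are often lowered. No table used here pairs the gene IDs with names or products. Neither these genes nor markers of cell types could therefore be looked up, and 2 IDs that rose and 2 that fell are named.

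The WT libraries were of similar depth, at 18199288 to 18758918 counts, and the most abundant gene took 1.42% to 1.71% of each. A chi-square test of counts gave 2.03 to 4.61 per degree of freedom between replicates of a group (6 pairs), above the value near 1 of sampling alone, so each library was counted once. The depth gave the median tested gene 192.0 counts per library.

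ABA changed many transcripts within 3 h, and most of the changes were small. A gene was called when its adjusted p, from the quasi-likelihood test of edgeR with Benjamini-Hochberg adjustment over all 33170 genes, was under 0.05. In all, 11953 genes were called, which is 36.0% of those tested, and 18.6% were higher and 17.5% lower. Of these 11953 genes, 7200 changed by less than 1.5-fold. Changes of at least 2-fold were made by 1641 higher genes (4.95% of those tested) and 746 lower genes (2.25%). Of all tested genes, 21.3% had an unadjusted p above 0.5, where a flat distribution would place 50%.

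The size classes differed between the directions. Below 1.5-fold, 3151 genes were higher and 4049 were lower. From 1.5-fold to 2-fold the numbers were 1364 higher and 1002 lower, and from 2-fold to 4-fold they were 1099 and 616. Increases outnumbered decreases more and more with size: 289 against 92 genes lay between 4-fold and 8-fold, 120 against 22 between 8-fold and 16-fold, and 133 against 16 at 16-fold or more. Changes of less than 1.5-fold thus made up 51.2% of the higher genes and 69.8% of the lower genes. The sizes are fitted fold changes. Some of the called genes passed the count filter through 1 group. At least 10 counts in every ABA library and fewer in every mock library were found for 257 genes, 249 of them called higher. The reverse held for 150 genes, 131 of them called lower. The median mock level of the higher genes of 16-fold or more was 0.126 CPM, and the classes were not recounted without such genes. How far the excess of increases in the largest classes rests on them was therefore not tested. When each gene was tested against a 2-fold minimum instead of no change (glmTreat of edgeR, Benjamini-Hochberg adjusted p under 0.05), 915 genes were higher and 275 lower.

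Scaling of the libraries mattered for the small changes. Of all calls, 51.5% were higher with TMM scaling and 38.9% with upper-quartile factors, where 5113 genes were higher and 8042 lower. The excess of lower genes below 1.5-fold was present with TMM, RLE and upper-quartile factors and with library size alone. The excess of higher genes between 1.5-fold and 2-fold turned to 1161 higher against 1370 lower with upper-quartile factors. At 2-fold or more, higher genes outnumbered lower ones under each of these scalings, in a range of 1491 against 859 to 1669 against 721.

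**Figure D1:**
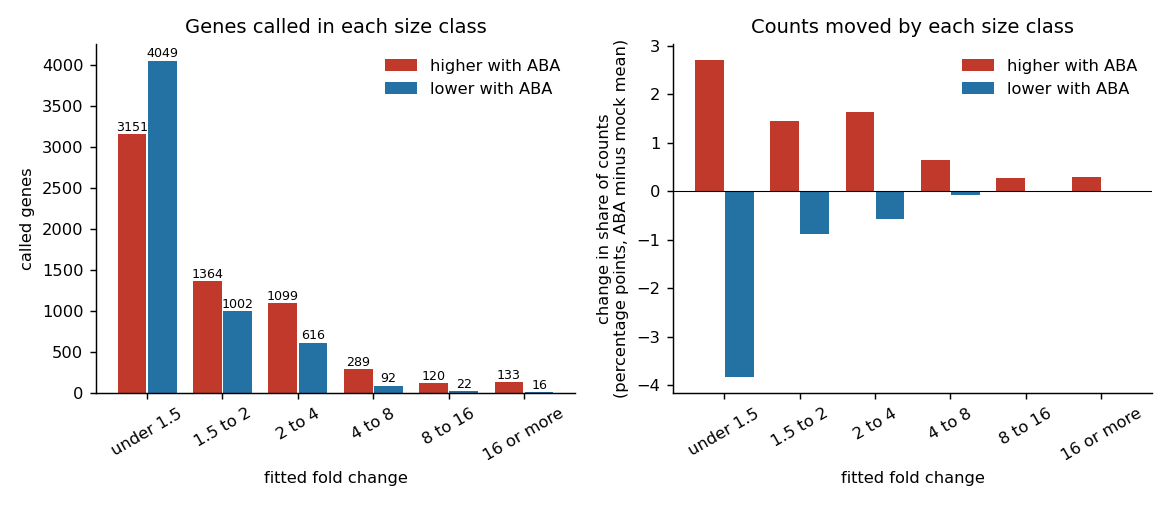
Left, the number of called genes by fitted fold change (x axis, fold) and direction, with the number above each bar. Right, the change in the share of library counts held by each class, in percentage points, ABA mean minus mock mean of 3 libraries each. Lower genes lead below 1.5-fold (4049 against 3151) and higher genes lead at 16-fold or more (133 against 16). The median mock level of those 133 genes was 0.126 CPM. The classes include genes that passed the count filter only through the group where they were high, and were not recounted without them.

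In the WT libraries, small changes carried much of the movement of counts. Genes called higher by less than 1.5-fold took 10.8% ± 0.0767 of all counts in mock and 13.6% ± 0.334 with ABA (SD, n = 3). Genes called lower by less than 1.5-fold held 18.6% ± 0.0716 in mock and 14.7% ± 0.304 with ABA. The classes of 16-fold or more held little: the 133 higher genes went from 0.00961% ± 0.000399 to 0.313% ± 0.0135, and the 16 lower genes from 0.0136% ± 0.00168 to 0.000622% ± 4.74e-05 (SD, n = 3). The classes were chosen on the same libraries, so these shares are a description without a test. In the pent1 libraries, which did not set the classes, the shares below 1.5-fold moved less. Genes higher in WT went from 12.6% ± 0.398 in mock to 13.1% ± 0.372 with ABA. Genes lower in WT went from 15.8% ± 0.784 to 14.7% ± 1.23 (SD, n = 3). Genes at least 2-fold higher went from 1.99% to 4.11% in pent1 and from 1.30% to 4.18% in WT. Genes at least 2-fold lower went from 0.887% to 0.459% in pent1 and from 1.10% to 0.416% in WT.

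Summed over all genes, 8.42% of the counts were placed differently between the mean mock and the mean ABA profile. Between single libraries the same quantity was 8.61% to 9.65% for the 9 pairs of an ABA and a mock library. It was 3.44% to 4.27% between mock replicates and 3.02% to 5.15% between ABA replicates. The treatment pairs lay above all replicate pairs, and replicate pairs of both groups reached about the same values. The movement was spread over many genes: 817 genes made up 50% of the gain and 805 genes made up 50% of the loss. These sums include differences that did not pass the test: called genes gave 83.7% of the gain and 64.2% of the loss.

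Gain and loss were built differently. Called genes at least 2-fold higher gave 34.2% of the gain, whereas called genes at least 2-fold lower gave 8.12% of the loss. Of the 100 genes with the largest gain, 90 were called and 54 of them at least 2-fold, with a median log2 fold change of 1.13 over the 100. Of the 100 genes with the largest loss, 54 were called and 13 of them at least 2-fold, with a median of -0.25. The other 46 had losses that did not pass the test. These lists were ranked by the same change, so the medians are descriptions.

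The genes named here are those with the largest gain or loss of CPM among called genes whose groups did not overlap. NbL04g13290 stood at 240.3, 250.9 and 228.3 CPM in the mock libraries and at 624.1, 662.8 and 546.7 CPM in the ABA libraries. All ABA values lay above all mock values, and the increase was 2.55-fold (log2 fold change 1.35, SE 0.08, quasi-likelihood test of edgeR, Benjamini-Hochberg adjusted p = 2.51e-11). By summed counts it moved from place 438 to place 145. NbL12g09520 stood at 303.8, 294.4 and 281.8 CPM in mock and at 666.6, 642.2 and 660.2 CPM with ABA. Its groups were also far apart relative to their spread, with a log2 fold change of 1.16 (SE 0.07, quasi-likelihood test of edgeR, Benjamini-Hochberg adjusted p = 3.35e-11). Against a 2-fold minimum, NbL12g09520 did not pass (glmTreat of edgeR, Benjamini-Hochberg adjusted p = 0.0894) and NbL04g13290 did (0.000807).

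Both named genes with a loss changed by less than 2-fold. Among all tested genes they stood in places 4 and 5 by loss of CPM, behind 3 genes that were not called, whereas the 2 named genes with a gain stood in places 1 and 2. NbL01g24330 fell from 913.0, 943.3 and 817.6 CPM in mock to 483.1, 519.7 and 503.2 CPM with ABA. The log2 fold change was -0.83 (SE 0.08, quasi-likelihood test of edgeR, Benjamini-Hochberg adjusted p = 2.83e-08), and the lowest mock library lay well above the highest ABA library. NbL13g22560 fell from 1139, 1099 and 952.8 CPM to 722.7, 805.2 and 659.2 CPM. Its libraries varied more within each group, and the log2 fold change was -0.54 (SE 0.09, quasi-likelihood test of edgeR, Benjamini-Hochberg adjusted p = 4.96e-05). By size of fold change NbL04g13290 stood in place 1039 among the higher genes and NbL01g24330 in place 1021 among the lower genes, so neither was among the largest fold changes.

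In pent1 the same genes were measured in libraries that took no part in their choice. Of 33197 genes tested there, 7.24% were called higher with ABA and 3.84% lower. The biological coefficient of variation, a measure of spread between replicates, was 0.129 in pent1 and 0.0630 in WT. Its part in the number of calls was not tested. The number of pent1 calls, 3678 in all, was 2345 without mock replicate 1, 2402 without ABA replicate 2 and 6011 without ABA replicate 3, and the number called lower, 1276, was 654 without mock replicate 1, 772 without mock replicate 3, 825 without ABA replicate 1, 669 without ABA replicate 2 and 2685 without ABA replicate 3. Scaled by library size alone, 1912 pent1 genes were called higher and 2039 lower, against 2402 and 1276. NbL04g13290 stood at 179.7 ± 15.4 CPM in pent1 mock and at 420.4 ± 92.3 with ABA (SD, n = 3; log2 fold change 1.23, SE 0.16, quasi-likelihood test of edgeR, Benjamini-Hochberg adjusted p = 0.000249). NbL12g09520 went from 193.9 ± 11.0 to 516.3 ± 43.5 CPM (log2 fold change 1.41, SE 0.13, quasi-likelihood test of edgeR, Benjamini-Hochberg adjusted p = 1.37e-05). Both genes that gained in WT thus rose in pent1 too. NbL01g24330 stood at 356.2 ± 15.3 CPM in pent1 mock and at 333.3 ± 53.3 with ABA, and NbL13g22560 at 612.7 ± 29.0 and 563.6 ± 79.5. The groups overlapped for both genes that fell in WT, and neither passed the test in pent1 (log2 fold changes -0.10, SE 0.15, and -0.12, SE 0.15, quasi-likelihood test of edgeR, Benjamini-Hochberg adjusted p = 0.743 and 0.671). The difference between the genotypes was not tested here.

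**Figure D2:**
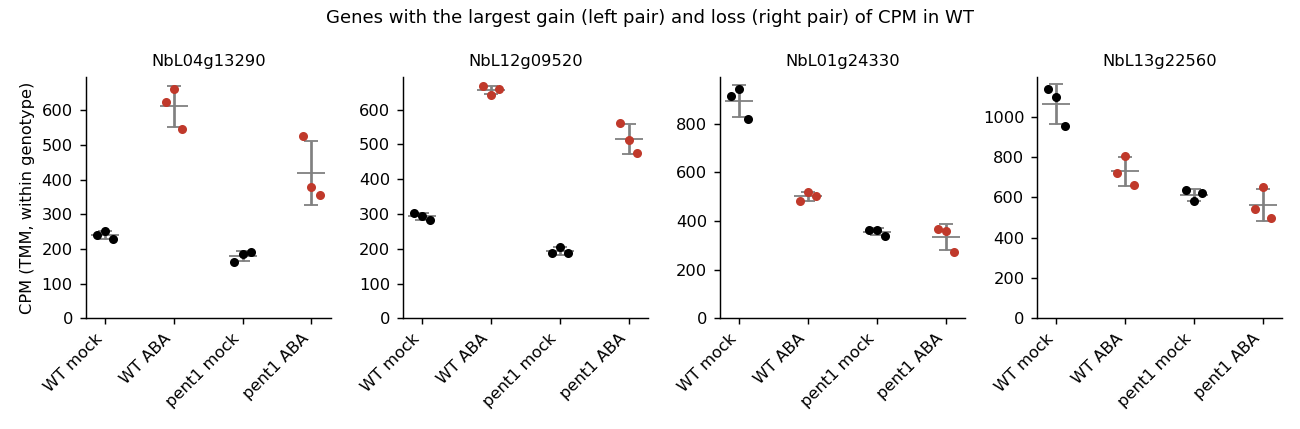
CPM (y axis, TMM-scaled within each genotype) of the named genes in every library, by group (x axis). Points are single libraries, black for mock and red for ABA, and bars show the mean and SD of 3. In WT the ABA libraries of NbL04g13290 and NbL12g09520 lie above all mock libraries, and those of NbL01g24330 and NbL13g22560 lie below.

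Calls among the most abundant genes were mostly decreases of less than 2-fold. Of the 10 genes with the most mock counts, which held 5.15% of mock counts and 4.88% of ABA counts, none was called by edgeR, DESeq2 or limma-voom and 0 had an unadjusted p under 0.05 by edgeR, and their median log2 fold change was 0.09 in size. Among the 200 most abundant genes, 12 (6.0%) were called higher and 28 (14.0%) lower, against 18.6% and 17.5% of all tested genes, and 1 of these changed by at least 2-fold. With all 6 libraries, the share called higher was thus below that of all genes, whereas the share called lower was near it. The 200 genes were not recounted with a library left out. Among the 405 genes with an average log2 CPM of 8 or more, 73 were called lower with all libraries. With 1 library left out the number was 54 to 128, the highest without ABA replicate 3, so the share called lower depended on that library. At the other end, 16 tested genes had no count in any mock library and 36 to 1445 summed counts with ABA, and all 16 were called higher. Against a floor of 3 counts over the mock libraries they were at least 12.1-fold to 484.1-fold higher. Such a gene could enter the test only through ABA: 257 genes had at least 10 counts in every ABA library and fewer in every mock library, and 150 had the reverse. All 16 lay in the class of 16-fold or more by the fit, and 12 of them had a bound of at least 16-fold. With all 16 kept in that class and set to their bounds, its median log2 fold change was 5.03, against 5.32 as fitted.

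The share of genes called depended on read abundance, given here as the average log2 CPM over the 6 libraries. CPM is not corrected for transcript length, which was not used here, so the bins order genes by counts and not by molecules. Of 1705 genes below 0, 21.8% were called. The share was 24.7% of 6851 genes from 0 to 2, 34.1% of 12183 genes from 2 to 4, 45.4% of 9654 genes from 4 to 6, and 51.5% of 2372 genes from 6 to 8. It fell back to 29.9% of 405 genes at 8 or more. The share called thus grew with abundance up to the bin from 6 to 8. In the same order of bins it was 17.7%, 19.4%, 24.6%, 29.0%, 32.0% and 14.6% with all 12 libraries in one fit of edgeR, and 14.0%, 17.0%, 24.8%, 36.1%, 48.7% and 32.6% with DESeq2. Both alternatives called a smaller share in most bins, and in both the highest share was that from 6 to 8. Over the fits with 1 library left out, the share at 8 or more was 23.5% to 43.5%, with the highest value without ABA replicate 3, where 128 genes of that bin were called lower against 73 with all libraries.

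Called changes of at least 2-fold were rarer among abundant genes. They were found in 19.9% of genes below 0, 11.1% from 0 to 2, 5.89% from 2 to 4, 4.76% from 4 to 6, 4.34% from 6 to 8 and 1.23% at 8 or more. Among called genes, the median log2 fold change of the higher ones was 1.64 below 0 and 0.32 at 8 or more, and that of the lower ones was -1.38 and -0.31. The smallest called log2 change was 0.81 in size below 0 and 0.16 from 6 to 8, and the median standard errors there were 0.37 and 0.07. The lowest bin depends on the count filter. Of its 339 called genes of at least 2-fold, 244 had at least 10 counts in every library of one group and fewer in every library of the other, and such a gene passed the filter through the group where it was high. Leaving out these genes, a choice added after the results were seen, gave 6.63% below 0 and 9.73% from 0 to 2, and 5.71%, 4.73%, 4.34% and 1.23% in the bins above. The decline from 0 to 2 upwards was thus present with and without them, whereas the place of the lowest bin was not. That choice removes genes by their difference, so neither value below 0 is read as a result.

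**Figure D3:**
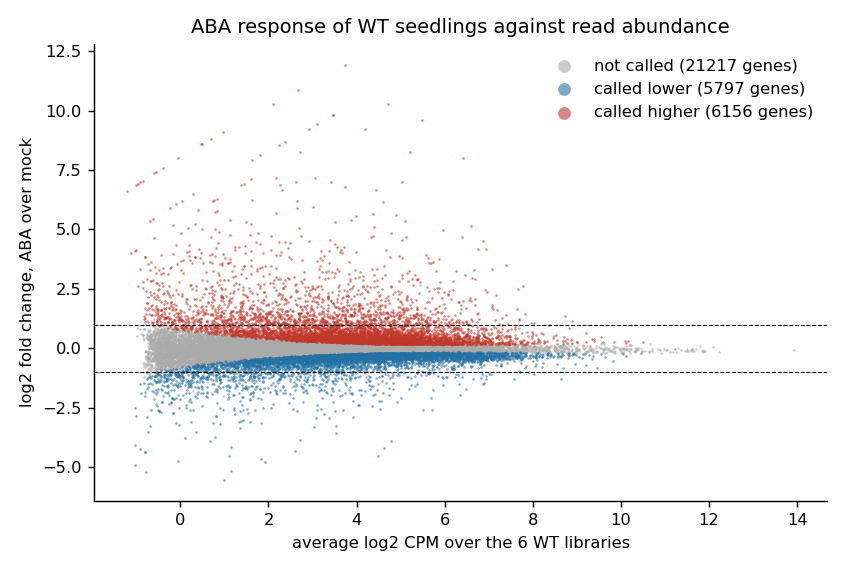
Log2 fold change of ABA over mock (y axis) against average log2 CPM (x axis) for the 33170 tested genes, with 6156 called higher in red, 5797 called lower in blue and 21217 not called in grey. Dashed lines mark 2-fold. The grey band is wide at low abundance and narrow at high abundance, and large increases reach farther from 0 than large decreases.

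A measure that leaves out the error of single libraries was also lowest for the most abundant genes. Log2 fold changes were taken from 3 pairs of an ABA and a mock library that share no library, and the square root of their mean covariance across the genes of a bin was used as the reproducible spread of fold changes. It was 0.78 below 0, 0.72 from 0 to 2, 0.59 from 2 to 4, 0.53 from 4 to 6, 0.52 from 6 to 8 and 0.26 at 8 or more, in log2 units. Without the genes at the count minimum in one group only, it was 0.36, 0.57, 0.53, 0.51, 0.52 and 0.26, so the high value below 0 was absent without them. The median difference between replicates of a group fell from 0.38 below 0 to 0.08 from 6 to 8 and was 0.09 at 8 or more. From 6 to 8 and at 8 or more the replicate differences were thus close, whereas the reproducible spread was 0.52 and 0.26. Across genes, which are not replicates, fold changes of these separate pairs had Pearson correlations of 0.614 to 0.640 below 0, 0.934 to 0.959 from 6 to 8 and 0.782 to 0.878 at 8 or more.

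**Figure D4:**
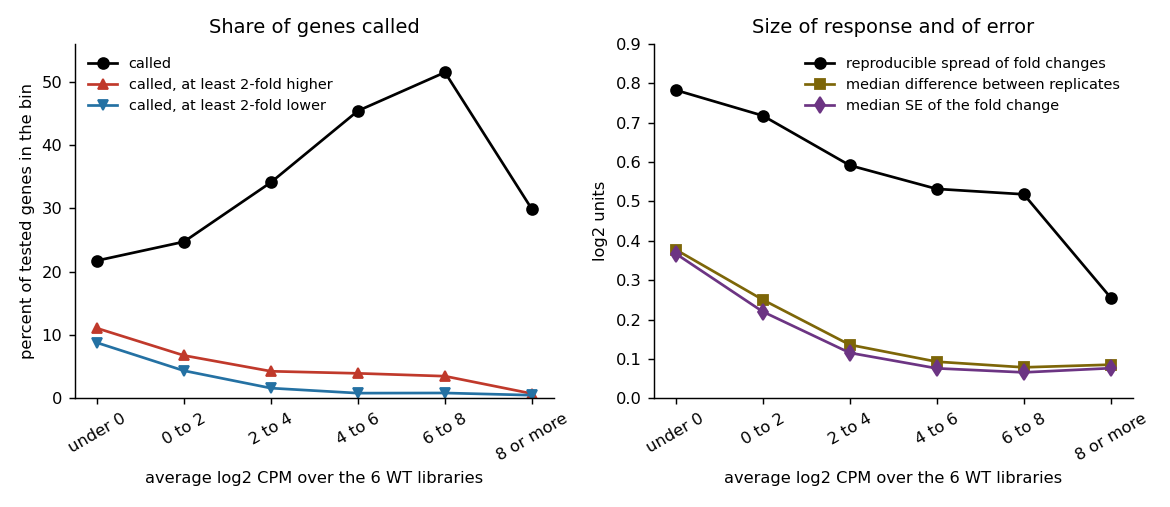
Left, the percentage of tested genes called (black) and called with at least 2-fold increase (red) or decrease (blue), by bins of average log2 CPM (x axis). Right, in log2 units, the reproducible spread of fold changes, the median difference between replicates of a group and the median standard error. Calls peak at 51.5% from 6 to 8, whereas the reproducible spread is lowest, at 0.26, at 8 or more; the value of 0.78 below 0 is 0.36 without genes at the count minimum in one group only.

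Directions differed with abundance as well. Higher genes made up 54.7% of the calls below 0, 51.3% from 0 to 2 and 49.8% from 2 to 4. They made up 55.3% from 4 to 6, 44.1% from 6 to 8 and 39.7% at 8 or more, so there was no steady decline. In the 2 most abundant bins lower genes were in the majority with TMM, RLE and upper-quartile factors, with library size alone, and by DESeq2 and limma-voom, with 25.0% to 46.6% of the calls higher. Between 4 and 6 the majority was higher except with upper-quartile factors, where it was 40.5%. Lower genes of 2-fold or more were few where reads were many: 79 from 4 to 6, 20 from 6 to 8 and 2 at 8 or more, against 381, 83 and 3 higher genes.

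Binning by the mock libraries sharpens the contrast, but then the mock counts both set the bin and enter the fold change. The bins were therefore also set by 1 mock library and the calls made on the other 2 mock and 2 ABA libraries, for each replicate number in turn. This choice was added after the results were seen. Genes below 0 in mock are left out here, since many could pass the count filter only through the ABA libraries: of the 257 genes that reached 10 counts in all ABA libraries and in no mock library, 249 were called higher. From 2 to 4 in the mock library used for the bins, 3.42% to 4.11% of genes were called at least 2-fold higher and 1.74% to 1.97% at least 2-fold lower over the 3 choices. From 6 to 8 the shares were 0.729% to 1.11% and 1.12% to 1.24%. In the same order they were 7.12% to 7.92% and 3.94% to 4.88% from 0 to 2. From 4 to 6 they were 1.86% to 2.46% and 1.17% to 1.20%, and at 8 or more 0.242% to 0.246% and 0.725% to 1.23%. Of all calls, 59.3% to 64.8% were higher from 0 to 2, 54.8% to 57.8% from 2 to 4 and 51.3% to 53.9% from 4 to 6. The values were 32.4% to 34.6% from 6 to 8 and 23.3% to 32.9% at 8 or more.

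Replicates agreed closely on the response. Among 31100 genes with a mean of at least 1 CPM, 2085 to 2331 differed by at least 2-fold between an ABA and a mock library (9 pairs). Between mock replicates 150 to 232 genes did so, and between ABA replicates 96 to 180. For the genes called at least 2-fold higher, the median log2 value relative to the mock mean was 0.09, -0.06 and -0.01 in the mock libraries and 1.48, 1.56 and 1.49 in the ABA libraries. For those called at least 2-fold lower, it was 0.07, -0.05 and -0.01 in mock and -1.32, -1.33 and -1.36 with ABA. The calls used the same libraries, so these medians are a description.

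Groups did not overlap for 46.7% of all tested genes, with ABA above mock in 22.9% and below it in 23.8%. Among called genes this held for 97.4% of the higher and 95.9% of the lower ones, and for all 542 and 130 genes of 4-fold or more. Since the call and the overlap use the same libraries, genes were also called on 2 mock and 2 ABA libraries and looked at in the mock and ABA library left out. Over the 3 choices, 5031 to 5429 genes were called higher, and 96.5% to 97.4% of them were higher in the libraries left out. Of 4247 to 4306 genes called lower, 94.9% to 96.4% were lower there. Mean changes in the libraries left out were 0.865 to 1.01 of those in the libraries used for higher genes and 0.809 to 0.912 for lower genes.

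Agreement was closest for the largest changes. Below 1.5-fold, 94.2% to 96.8% of higher genes and 94.2% to 96.0% of lower genes kept their sign in the libraries left out, and at 8-fold or more all did. Full agreement there was close to fixed by the size of the changes. Replicates of a group differed by a root mean square of 0.26 to 0.30 log2 units. Higher genes from 8-fold to 16-fold had median log2 changes of 3.03 to 3.25 in the libraries left out. Of the 11953 calls, 8213 (68.7%) held in each of the 6 fits with 1 library left out. By size, 58.8% of the higher and 54.7% of the lower genes below 1.5-fold held in all 6 fits, against 94.8% and 88.5% of those of 2-fold or more and 540 of 542 and all 130 of those of 4-fold or more. DESeq2 kept 75.5% of the higher and 60.0% of the lower calls below 1.5-fold and all calls of 4-fold or more. The calls that came and went were thus mainly those of small size.

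The size classes of WT were also read in pent1, whose libraries had no part in setting them. For genes higher in WT, the median log2 fold change in pent1 was 0.12 for the class below 1.5-fold, 0.42 from 1.5-fold to 2-fold, 0.86 from 2-fold to 4-fold, 1.67 from 4-fold to 8-fold, 2.45 from 8-fold to 16-fold and 3.98 at 16-fold or more. For genes lower in WT it was -0.05, -0.37, -0.76, -1.63, -2.21 and -3.88 in the same order of classes. The median over all genes tested in both was -0.01. The classes below 1.5-fold depended on scaling and on single libraries. With library size alone in pent1 the median over all genes was -0.10, those of the smallest classes were 0.03 and -0.14, and the sign was shared by 54.4% of the higher and 75.4% of the lower genes. Without pent1 ABA replicate 3 the smallest lower class had a median of 2.92e-05. The order of the classes was thus kept in both directions, and each pent1 median was smaller in size than that of WT (0.36, 0.74, 1.30, 2.39, 3.45 and 5.32 for higher genes). The WT medians cover all genes of a class and the pent1 medians only those tested in pent1, so the gene sets are not matched. The classes were both chosen and measured on the WT libraries. Among genes called on 4 WT libraries at 4-fold to 8-fold, mean changes in the libraries left out were 0.907 to 1.03 of those in the libraries used for higher genes. For lower genes they were 0.859 to 0.946. Below 1.5-fold the values were 0.852 to 0.935 and 0.813 to 0.880. Why the pent1 medians were smaller, and whether the genotypes differ, was not tested here. The sign was shared by 65.4% of higher and 60.4% of lower genes below 1.5-fold, by 95.5% and 96.7% of those of 2-fold or more, and by 61.9% of all genes tested in both. Not every WT gene entered: of the 133 and 16 genes of 16-fold or more, 117 and 9 were tested in pent1.

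**Figure D5:**
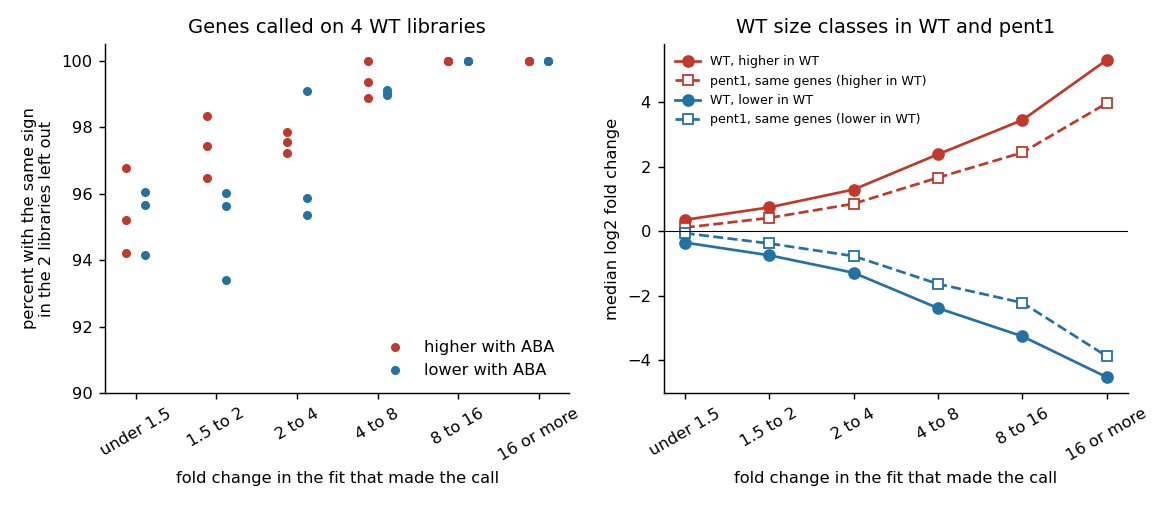
Left, the percentage of genes (y axis) called on 4 WT libraries that had the same sign in the mock and ABA library left out, by fold change (x axis), with 1 point for each of the 3 choices. Right, median log2 fold change of each WT size class in WT (filled) and in pent1 (open), for genes higher (red) and lower (blue) in WT. Agreement reaches 100% at 8-fold or more, where the changes are far larger than differences between replicates, and the pent1 medians keep the order of the classes. The WT medians cover all genes of a class and the pent1 medians only those tested in pent1.

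The share of genes called varied little along the ID series. IDs begin with 20 different prefixes, from NbL00 to NbL19, and no source used here says what the prefixes mean. The share of tested genes called was 33.4% to 38.3% over the 19 prefixes from NbL01 to NbL19, and 30.6% for NbL00, which had 108 tested genes. Genes called at least 2-fold higher made up 3.86% to 6.25% over the same 19 prefixes, and genes called at least 2-fold lower made up 1.61% to 3.02%. These shares rest on fewer genes, and the spread that sampling alone would give was not computed. Their wider range in proportion is therefore not read as a result.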

How the data were processed

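Read counts per gene were used as deposited by the authors: whole numbers without normalization, 1 table for WT and 1 for pent1. Per the labels' protocols the mRNA kit was strand-specific, and FastQC, cutadapt, STAR and DESeq2 were used, per the submitters' processing notes. No source used here gives the counter, genome build, annotation or handling of multi-mapped reads. N. benthamiana is an allotetraploid, and reads of near-identical copies may be split or shared between IDs. Columns were assigned by the labels' descriptions, and every column was assigned.

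WT ABA was compared with WT mock on its 6 libraries with edgeR 4.0.16 in R 4.3.3 (TMM, filterByExpr with a count minimum of 10, robust quasi-likelihood test, Benjamini-Hochberg threshold 0.05), and pent1 likewise on its own 6. The biological coefficient of variation was 0.0630 in WT and 0.129 in pent1. Standard errors are those implied by the F statistic. Log2 CPM of single libraries used a prior count of 2. Bins by mock CPM used a pseudocount of 0.1. Counting floors cover counting error only. Genes were named by rule: the 2 largest gains and 2 largest losses of mean CPM among called genes without overlap of the groups. Members, classes and rules were chosen with earlier results of these data known. Alternatives were other scalings and filters, DESeq2 1.42.0, limma-voom (limma 3.58.1), a 2-fold minimum, a replicate block, a fit of all 12 libraries and leaving out libraries.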

Additional observations from a re-analysis of the deposited data

How the results depend on the processing

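Under RLE, upper-quartile and library-size scaling, both other filters, DESeq2, limma-voom and the leaving out of each WT library, the WT counts of called genes and of genes changed at least 2-fold stayed within 1.5 times. WT calls ranged from 10012 to 11251 over the fits with 1 library left out, with 5349 to 6126 higher and 4663 to 5262 lower. Against a 2-fold minimum 1190 genes passed, 915 higher and 275 lower, fewer by construction, and of the named genes only NbL04g13290 passed. With all 12 libraries in one fit, WT had 8324 calls, of which 3648 were lower. The replicate block gave 12024 WT calls; same-numbered WT libraries deviated together by correlations of 0.0506, -0.0442 and 0.0112, so the numbers were not taken as pairs, and it gave 4087 calls in pent1. In pent1 the number lower was 2039 with library size alone, and leaving out 1 library gave 2345 to 6011 calls, 1691 to 3326 higher and 654 to 2685 lower; the cause was not tested. Binned on the mock libraries, 30.8% of genes below 0 and 44.3% from 4 to 6 were called. Binned on 1 mock library with calls from the other libraries, the shares from the lowest to the highest bin were 25.1% to 28.3%, 19.0% to 19.8%, 26.3% to 27.4%, 34.1% to 35.9%, 38.2% to 45.3% and 20.5% to 35.9%, with fewer libraries per call. Crossed pairs gave a reproducible spread of 0.516 from 6 to 8. Without genes at the count minimum in one group only, a choice added after the results were seen, 8.73% were called below 0 and 23.5% from 0 to 2, and the reproducible spread was 0.362, 0.570, 0.528 and 0.505 in the 4 lowest bins. Below 0, at a median of 12.5 counts per library, no log2 change under 0.81 in size was called. No named gene changed sign in WT under any of these alternatives; in pent1 NbL01g24330, not called there, had a log2 change of 0.03 without ABA replicate 3 and stayed below 0 otherwise.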
